A study of Ipomoea batatas with 12 samples.

Results

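Of the 50592 genes with a deposited FPKM (fragments per kilobase of transcript scaled to the mapped fragments of the library), 7 carry the name of a small heat shock protein in the study's lists of changed genes, namely HSP21 (MSTRG.27569), HSP22 (G36033), HSP15.7 (G27775), a pair named HSP17.4B (MSTRG.37536 and G39305) and a pair named HSP17.5-M (MSTRG.30591 and MSTRG.30592). The names come from matches to genes of other species. The study listed these genes as changed in the same libraries, under heat or under drought with heat, and HSP21 under drought alone too. A rise over the control is therefore no independent evidence of its direction. Sweetpotato (Ipomoea batatas) plants of the purple cultivar Xuzishu 8 grew for 60 days in the field and were then moved to hydroponic Hoagland solution. The 12 libraries comprised 3 of each of 4 groups: the control at 25 °C (CK), heat at 42 °C (HT), drought imposed with 30% PEG6000 (DR, chamber temperature not given in the sources used here), and 42 °C together with 30% PEG6000 (DH). Each library pooled RNA of the third unifoliate leaf and of storage roots from 7 time points between 0.5 and 48 h. Leaf and root, early and late responses are thus averaged, and a change in RNA per cell cannot be told apart from a change in the share of each tissue. CK plants stood in a separate growth chamber, so chamber and stress cannot be told apart in any comparison with CK. The 3 pools of a group are described as biological replicates, without saying whether each drew on separate plants, so p-values describe the spread among these pools only.

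Small heat shock proteins are chaperones that share an alpha-crystallin domain, assemble into oligomers and bind unfolding proteins without using ATP, holding them until HSP70 machines refold or release them. In plants they are encoded in the nucleus and form families by compartment: class I and class III members are chiefly known from the cytosol and nucleus, and others enter plastids, mitochondria, the endoplasmic reticulum or peroxisomes. Their genes are classical targets of heat stress transcription factors and are nearly silent in most unstressed vegetative tissue. In Arabidopsis, HSP21 protects the plastid transcription machinery and thylakoid membranes under heat, HSP15.7 is the peroxisomal member, and HSP17.4B is a class III member. HSP17.5-M is a name used for a class I protein in soybean. HSP22 is a name given to more than 1 organelle form and is used here only as a name.

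The 7 transcripts together were scarce in control plants and higher in every stressed library that lists them all. Their summed FPKM were 23.4, 5.20 and 6.66 in CK replicates 1 to 3 (CK1 to CK3), 1235, 199 and 3681 in HT1 to HT3, 183 and 494 in DR1 and DR3, and 747, 141 and 1111 in DH1 to DH3. The table of DR2 ends after 49073 genes and lists 3 of the 7, whose sum of 3.22 cannot be set beside sums of 7. None of these 3 stood above the controls in DR2. HSP15.7 was below them all (1.16, with 3.43 to 11.66 in CK), and HSP22 (0.26) and G39305 (1.8) lay within their range. Every heated library stood above every control library in the sum, but libraries of 1 group differed widely, and HT2 and DH2 were the lowest of their groups. As a percentage of all FPKM in the library, the same sums ranged from 0.000405% to 0.00215% in CK, from 0.0158% to 0.254% in HT and from 0.00959% to 0.0820% in DH, and were 0.0147% and 0.0381% in DR1 and DR3. All 7 genes reached 1 FPKM or more in 3 or more libraries, the filter for testing, which 12295 genes of the tables passed.

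**Figure D1:**
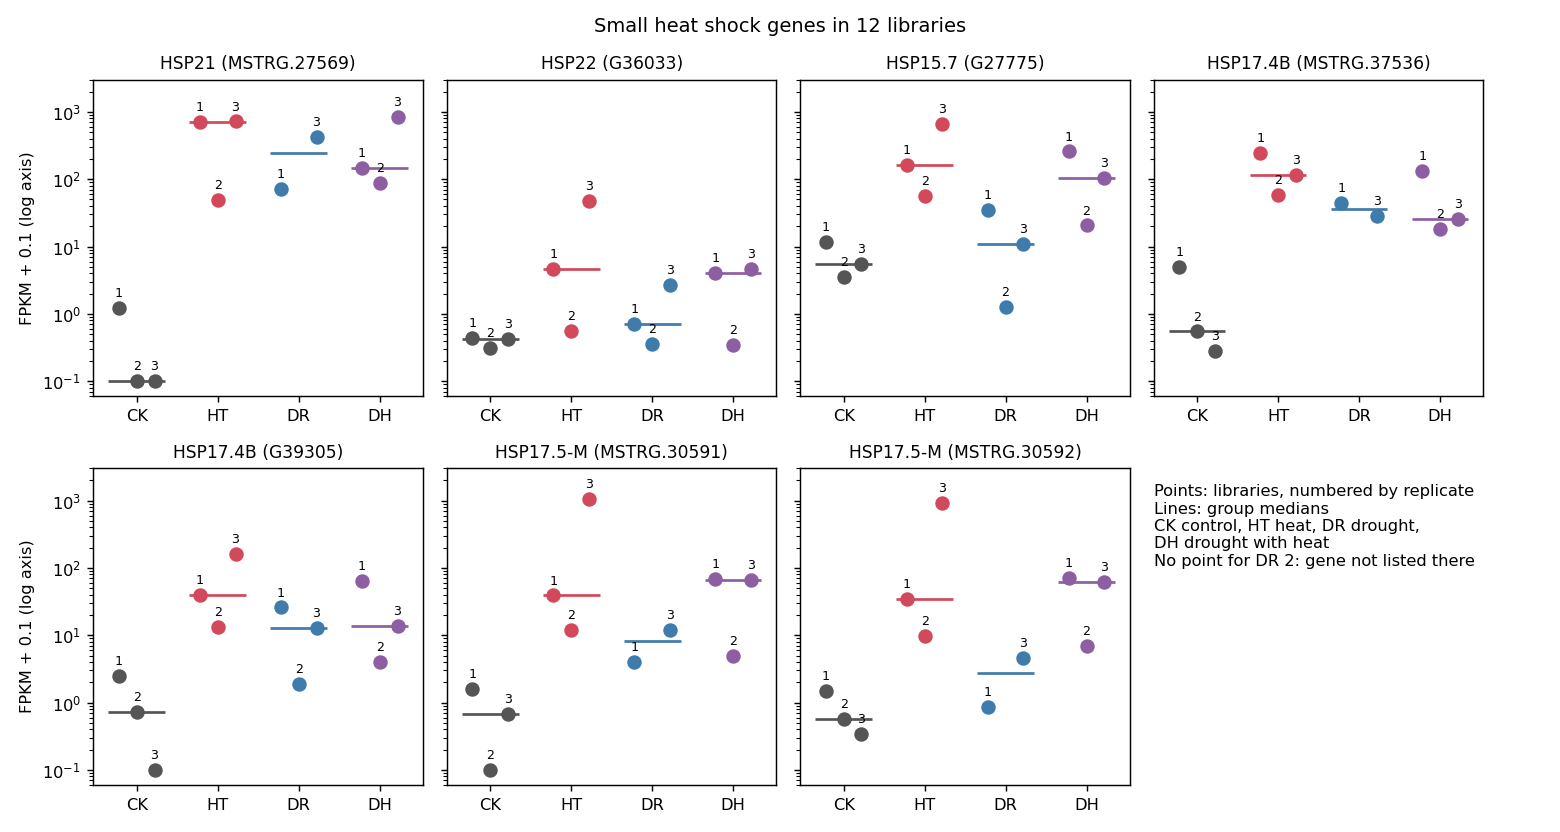
FPKM plus 0.1 on a log axis for each of the 7 genes in the 12 libraries, grouped by CK, HT, DR and DH, with points numbered by replicate and lines at group medians. All 3 HT libraries stand above all 3 CK libraries in each panel, DR points lie within the HT range for HSP21, between the CK and HT ranges for HSP17.4B MSTRG.37536 and partly within or below the CK range for HSP22, HSP15.7, G39305 and MSTRG.30592, and DR2 has a point for 3 genes only.

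The libraries differed in ways that touch these values. The sum of all FPKM lay between 1088868 and 1472561 per library, and the 10 most abundant genes held 34.7% (HT1) to 89.7% (DH2) of it, with 71.8% in HT2. Genes with an FPKM above 0 numbered 13653 in DH2 to 33410 in CK3. The 6 chlorophyll synthesis genes and 5 starch genes named by the study stand in for leaf and storage root, although the study picked both lists because they fell under stress. The summed FPKM of the 4 leaf genes listed in every library was 1051 to 4724 in CK, 68.8 to 358 in HT, 968 to 2406 in DR and 23.2 to 416 in DH. The summed starch genes reached 33.7, 103.5 and 1758 in CK1 to CK3, 1.85 to 20.3 in HT, 6.45 to 45.6 in DR and 0.50 to 28.8 in DH. The leaf sum was lower in each heated library than in each CK or DR library. Of the 6 leaf genes limma called 0 lowered under HT, 0 under DR and 2 under DH, beside 58, 24 and 119 of the 12295 genes tested. Before adjustment 5, 0 and 6 of the 6 had p under 0.05, with median log2 differences of -2.93, -0.13 and -3.06. Of the 3 starch genes tested, 0, 0 and 1 were called lowered, and 3, 2 and 3 had an unadjusted p under 0.05. The starch sum was lower in each heated library than in each control. The part of tissue shares in the results was not tested.

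HSP21, the plastid name, had the largest fitted difference from CK of the 7 under each stress. It was listed at 1.13, 0 and 0 FPKM in CK1 to CK3, at 706, 49.1 and 720.3 in HT, at 72.1 and 422 in DR1 and DR3, and at 147, 86.9 and 833 in DH. No stressed library overlapped a control library, whereas HT, DR and DH overlapped one another. On the log2(FPKM + 1) scale used for all tests here, HSP21 was 7.84 ± 1.15 (SE) above CK under HT (limma, adjusted p = 0.0015), 7.10 ± 1.28 above under DR without DR2 (adjusted p = 0.0053), and 7.43 ± 1.15 above under DH (adjusted p = 0.0017). The calls under HT and DH were made under all 30 alternative settings tried. That under DR ended without DR3 (5.83, adjusted p = 0.25), which left DR1 alone, and without the filter on low values.

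HSP22 was the scarcest of the 7 in every heated library. Its FPKM were 0.34, 0.21 and 0.32 in CK, 4.61, 0.46 and 47.0 in HT, 0.62, 0.26 and 2.59 in DR, and 3.98, 0.25 and 4.53 in DH. HT2 lay barely above the controls and DH2 within them, while HT3 alone exceeded 5 FPKM. HT exceeded CK by 2.51 ± 1.0 (limma, adjusted p = 0.24), DH by 1.34 ± 1.0 (adjusted p = 0.66) and DR by 0.59 ± 1.0 (adjusted p = 1), and none was called. Without HT2 the value under HT was 3.67 (adjusted p = 0.038), which would have been called.

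HSP15.7, the peroxisomal name, was the most abundant of the 7 in each control library. Its FPKM were 11.7, 3.43 and 5.35 in CK, 163, 57.2 and 656 in HT, 35.4, 1.16 and 10.8 in DR, and 259, 20.5 and 105 in DH. All 6 heated libraries stood above all 3 controls, and DR ranged from below the lowest control (DR2) to above the highest (DR1). The median was 30.4 times that of CK under HT, 19.7 times under DH and 2.03 times under DR. The log2 difference was 4.70 ± 1.15 under HT (limma, adjusted p = 0.045, raised), 3.57 ± 1.15 under DH (adjusted p = 0.13) and 0.46 under DR with a 95% interval from -1.91 to 2.83 (adjusted p = 1). The call under HT sat close to the threshold and ended when HT1, HT3, CK2, CK3, DH3 or DR3 was left out, with values from 3.78 to 4.79 and adjusted p up to 0.20.

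The 2 genes named HSP17.4B, the class III name, rose under HT. MSTRG.37536 had 4.95, 0.45 and 0.18 FPKM in CK, 249, 58.0 and 116 in HT, 43.8 and 28.5 in DR1 and DR3, and 134, 17.9 and 25.7 in DH. Every stressed library lay above every control, and every HT library above both DR libraries. G39305 had 2.41, 0.63 and 0 FPKM in CK, 39.6, 13.2 and 161 in HT, 25.8, 1.8 and 12.7 in DR, and 64.1, 3.96 and 13.8 in DH. Here DR2 fell among the controls and the ranges of the 3 stresses overlapped.

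Against CK, MSTRG.37536 was higher by 5.79 ± 1.01 under HT (limma, adjusted p = 0.0068), by 4.24 ± 1.01 under DH (adjusted p = 0.033) and by 4.07 ± 1.13 under DR (adjusted p = 0.11), so that it was raised under HT and DH. For G39305 the differences were 4.68 ± 1.11 under HT (adjusted p = 0.040, raised), 3.25 ± 1.11 under DH (adjusted p = 0.17) and 2.51 ± 1.11 under DR (adjusted p = 0.58). For MSTRG.37536 the HT call ended without CK2 or HT1 (5.26 and 5.5, adjusted p up to 0.062) and the DH call without CK2, CK3, DR3, DH1 or DH3 (3.37 to 4.55, adjusted p up to 0.22), while under DR it would have been called without CK1 (4.80, adjusted p = 0.037) and with the replicate number as a block (3.62, adjusted p = 0.037). The HT call of G39305 ended without HT1, HT3, CK2, CK3, DH3 or DR3 (3.76 to 4.76, adjusted p up to 0.18).

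The 2 genes named HSP17.5-M, the class I name, were raised under HT and moved as a pair. MSTRG.30591 had 1.49, 0 and 0.57 FPKM in CK, 39.0, 11.8 and 1067 in HT, 3.97 and 12 in DR1 and DR3, and 67.7, 4.89 and 66.0 in DH. MSTRG.30592 had 1.41, 0.48 and 0.24 in CK, 34.3, 9.55 and 913 in HT, 0.76 and 4.52 in DR1 and DR3, and 71.4, 6.76 and 62.5 in DH. For MSTRG.30592 all 6 heated libraries stood above all 5 CK and DR libraries that list it. In the deposited FPKM no other of the 7 showed this separation. It was seen in 0.179% of the genes tested, most of which DR2 lists as well. With libraries scaled without the 10 most abundant genes or by median of ratios, HSP15.7, MSTRG.37536 and MSTRG.30591 showed it too, 4 of 7 beside 1.01% and 0.781% of the genes tested. HT3 stood far above the rest, at 27.4 and 26.6 times HT1 for the 2 genes.

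Under HT the differences from CK were 5.70 ± 1.28 for MSTRG.30591 (limma, adjusted p = 0.036) and 5.41 ± 1.26 for MSTRG.30592 (adjusted p = 0.038). Under DH they were 4.25 ± 1.28 (adjusted p = 0.10) and 4.33 ± 1.26 (adjusted p = 0.086), and under DR 2.35 ± 1.43 (adjusted p = 0.93) and 0.93 ± 1.40 (adjusted p = 1). Both HT calls ended without CK2, CK3, HT1, HT3 or DR3 (3.56 to 6.21 over both genes, adjusted p up to 0.18), and both would have been called under DH without HT2, HT3 or DH2 (4.25 to 5.43). The IDs of the 2 genes follow one another in the assembly, and near-identical copies in this polyploid genome can share reads, so that the split between the 2 is uncertain, as is that between the 2 HSP17.4B genes.

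**Figure D2:**
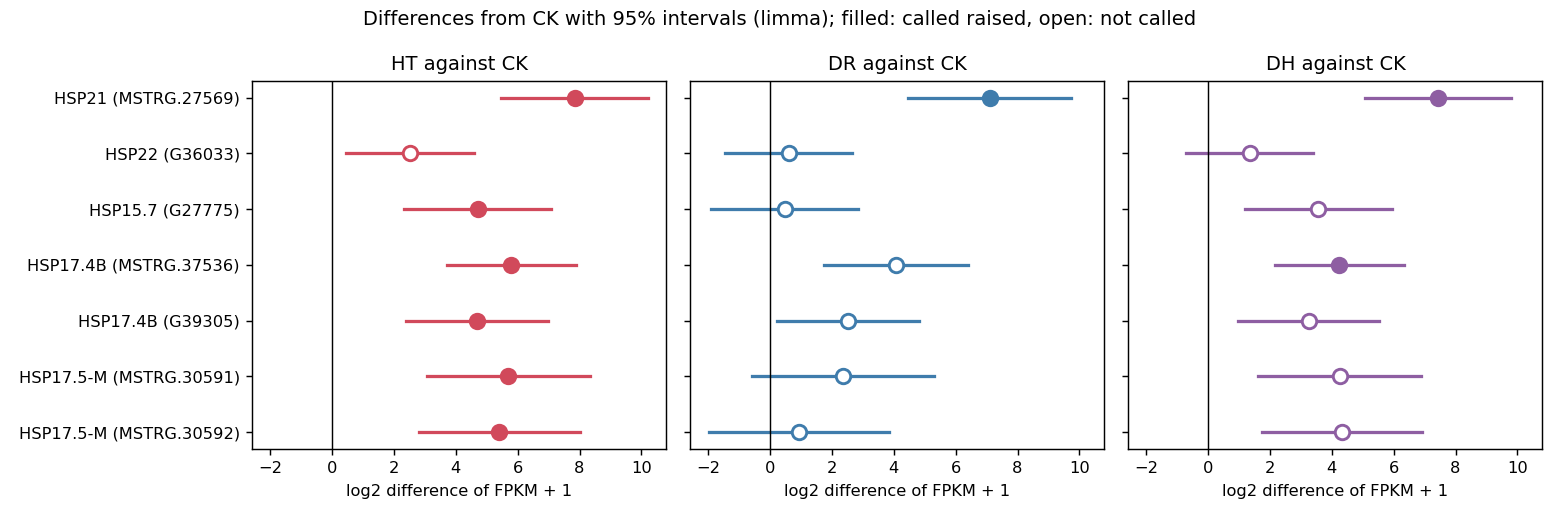
Differences from CK on the log2(FPKM + 1) scale with 95% intervals from limma for the 7 genes under HT, DR and DH. Filled points mark the genes called raised, which are 6 of 7 under HT, HSP21 alone under DR, and HSP21 with HSP17.4B MSTRG.37536 under DH.

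Under HT 6 of 7 members were raised, where limma called 0.569% of the genes tested raised. The 7 were taken from the study's lists of changed genes in these libraries. Their excess over the share of all genes is therefore no independent result, here and in the other comparisons with CK. Under DR 1 of 7 was raised (0.586% of all tested) and under DH 2 of 7 (0.577% of all tested). The 7 had a median difference of 5.41 under HT, 4.24 under DH and 2.35 under DR, beside 0.30, -0.37 and 0.07 over all genes tested. Ranges did not overlap between HT and CK for 7 of 7 (11.5% of all tested genes lay wholly above), between DR and CK for 3 of 7 (8.56%) and between DH and CK for 6 of 7 (5.77%), HSP22 being the exception under DH. HSP21, MSTRG.37536 and MSTRG.30591 had every stressed library above every control (3 of 7, beside 2.05% of all tested genes). These are also the 3 clear of CK under DR, and DR2 lists none of them. They had to clear CK in 2 DR libraries, most genes tested in 3. In the deposited FPKM, the 3 members that DR2 lists (HSP22, HSP15.7 and G39305) all overlapped CK under DR, as did MSTRG.30592. Scaled without the 10 most abundant genes, the counts without overlap were 5 of 7 for DR (9.37% of all tested genes) and 7 of 7 for DH (14%), and by median of ratios 3 of 7 (7.46%) and 7 of 7 (9.15%), so that HSP22 was no longer an exception. The 3 comparisons share the CK libraries. The number raised under HT was 1 without CK2 or HT1, 2 without CK3, HT3 or DR3, 4 without DH3 and 7 without HT2, and it was 1 without the filter on low values and 2 in a fit of HT and CK alone or without a variance trend. Under DR it was 0 without DR3 and 2 without CK1. Under DH it was 1 without CK2, CK3, DH1, DH3 or DR3 and 4 without DH2, HT2 or HT3, and 4 to 6 with 4 of the 5 other scalings of the libraries. The number of all genes raised moved too, under HT from 70 to 8 without CK2, 6 without HT1 and 320 without HT2. Under DH it moved from 71 to between 114 and 231 in those 4 scalings.

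The stresses were then compared with one another, which asks whether the small heat shock genes respond to heat more than to drought and whether drought alters their response to heat. HSP15.7, MSTRG.37536 and MSTRG.30592 lay higher in every HT library than in every DR library listing them (3 of 7, beside 4.63% of all tested genes). DR2 lists only HSP15.7 of these, whereas it lists most genes tested. The differences between HT and DR were 4.24 ± 1.15 for HSP15.7 (limma, adjusted p = 0.31), 4.49 ± 1.40 for MSTRG.30592 (adjusted p = 0.50) and 1.72 ± 1.13 for MSTRG.37536 (adjusted p = 0.72), and none of the 7 passed after adjustment, where 0.0651% of all genes did. Before adjustment 3 of 7 had p under 0.05, beside 7.3% of all genes. HSP21 differed by 0.74 between HT and DR, with an interval from -1.90 to 3.39, which leaves room for a several-fold difference in either direction.

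Between DH and HT no member and no gene of the 12295 was called by limma, and 4.86% of all genes and 0 of 7 members had an unadjusted p under 0.05. With all libraries the 7 differences were below 0, from -1.55 (MSTRG.37536) to -0.41 (HSP21), with a median of -1.17 beside -0.65 over all genes. The ranges of DH and HT overlapped for all 7, while 10.4% of all tested genes lay wholly lower in DH and 0.488% wholly higher. The sign of HSP21 turned with 4 of the 5 other scalings (0.20 to 0.73), and without HT3 the differences of HSP21, HSP22 and both HSP17.5-M genes lay above 0 (0.18 to 0.77), with a median of 0.18 over the 7. Between DH and DR no member was called, beside 0.0407% of all genes, the largest differences being 3.40 ± 1.40 for MSTRG.30592 (adjusted p = 1) and 3.11 ± 1.15 for HSP15.7 (adjusted p = 1), and 2 of 7 had an unadjusted p under 0.05, beside 3.54% of all genes. In the deposited FPKM, MSTRG.30592 alone had every DH library above every DR library that lists it (0.716% of all tested genes, most of which DR2 lists as well). With libraries scaled without the 10 most abundant genes or by median of ratios, this held for 4 of 7, with HSP15.7, MSTRG.37536 and MSTRG.30591 besides (5.3% and 5.03% of all tested genes).

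The interaction of heat and drought, the difference between DH and HT less that between DR and CK, was below 0 for all 7 genes. It was -7.51 ± 1.72 for HSP21 (limma, adjusted p = 0.28), -5.62 ± 1.52 for MSTRG.37536 (adjusted p = 0.36) and -3.94 ± 1.57 for G39305 (adjusted p = 0.83). These 3 had unadjusted p under 0.05, as had 5.26% of all genes, and no gene of the 12295 passed after adjustment. For HSP21 the interaction would have passed without HT2 (-8.78, adjusted p = 0.010). The fitted rise of HSP21 over CK was 7.43 under DH, 7.84 under HT and 7.10 under DR. DH differed from HT by -0.41 (interval from -2.78 to 1.95) and from DR by 0.33 (interval from -2.31 to 2.98). Both intervals leave room for a several-fold difference in either direction. The median FPKM of HSP21 under DH was 0.208 times that of HT and 0.595 times that of DR. The interaction did not pass after adjustment with all libraries. Whether the rise under DH fell short of the sum of the 2 single log2 rises is therefore undecided.

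Averaged over both water regimes, heat raised HSP21 by 4.09 ± 0.86 (limma, adjusted p = 0.030), HSP15.7 by 3.90 ± 0.81 (adjusted p = 0.027) and MSTRG.30592 by 4.41 ± 0.94 (adjusted p = 0.031), 3 of 7 where 0.163% of all tested genes were raised. That excess is no independent result either, as the libraries from which the study listed the 7 enter this average. The other 4 had values from 1.63 (HSP22) to 3.80 (MSTRG.30591) with adjusted p from 0.073 to 0.34. Between DH and DR, the 3 raised genes differed by 0.33 ± 1.28 (HSP21), 3.11 (HSP15.7) and 3.40 (MSTRG.30592). The average for HSP21 thus came almost wholly from HT against CK (7.84). These averages count DR as not heated, although its chamber temperature is not given. Averaged over both temperatures, drought gave 3.34 ± 0.86 for HSP21 (adjusted p = 0.12) and between -0.34 and 1.26 for the other 6, and no member was called, beside 0.22% of all genes. The count for heat was 0 without any 1 of CK2, HT1, HT3, DR3, DH1 or DH3, 1 without DR1, 2 without DR2 and 5 without CK1.

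The make-up of the small heat shock RNA within a library does not depend on how libraries are scaled against each other. HSP15.7 held 49.9%, 66.0% and 80.3% of the summed FPKM of the 7 in CK1 to CK3, and 2.2% to 34.6% in the stressed libraries that list all 7. HSP21 held 0% to 4.8% in CK, 57.2%, 24.6% and 19.6% in HT1 to HT3, 39.5% and 85.6% in DR1 and DR3, and 19.7%, 61.5% and 75.0% in DH1 to DH3. The plastid name thus took the place of the peroxisomal one as the leading member in 5 of the 8 stressed libraries that list all 7, and the exceptions were HT2, led by HSP17.4B MSTRG.37536, HT3, led by HSP17.5-M MSTRG.30591, and DH1, led by HSP15.7.

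**Figure D3:**
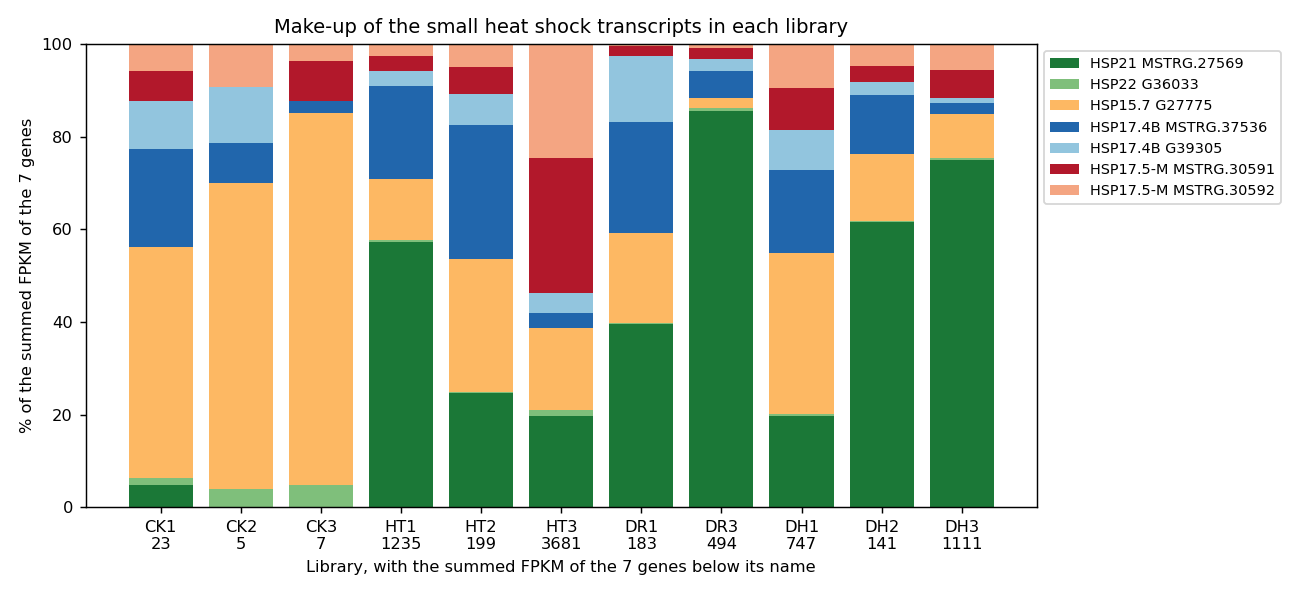
Share of each of the 7 genes in their summed FPKM (vertical axis, %) within each of the 11 libraries that list all 7, with the sum below each library's name. HSP15.7 leads in the 3 control libraries, HSP21 takes 85.6% in DR3, and the HSP17.5-M pair takes 53.8% in HT3.

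The HSP17.5-M pair together held 53.8% in HT3 against 5.9% in HT1 and 10.7% in HT2, 18.6%, 8.3% and 11.6% in DH1 to DH3, and 9.2% to 12.4% in CK. In DR1 and DR3 it held 2.6% and 3.3%, below each of the other 9 libraries. Between HT3 and HT1 the members did not move by 1 factor. HSP21 was nearly equal in both (1.02 times), HSP15.7 and G39305 were 4.03 and 4.07 times higher in HT3, HSP22 was 10.2 times higher, the HSP17.5-M genes were 27.4 and 26.6 times higher, and MSTRG.37536 was lower (0.467 times). HT1 and HT3 carry the same label, and what sets them apart was not tested.

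Ratios of 2 members within a library, chosen after their values were seen, are given as descriptions. HSP15.7 was 4.84 and 5.44 times G39305 in CK1 and CK2 (G39305 was listed at 0 in CK3), 4.11, 4.34 and 4.07 times in HT, and 4.04, 5.18 and 7.61 times in DH, over a range of FPKM from 3.43 to 656 for HSP15.7. In DR1 to DR3 the ratio was 1.37, 0.644 and 0.855. All 3 DR libraries thus lay below the other 8, and the heated libraries with PEG lay with the heated libraries without it. The DR2 ratio rests on low FPKM (1.16 over 1.8), as does that of CK2 (0.63 for G39305). Those of DR1 and DR3 rest on 35.4 over 25.8 and 10.8 over 12.7. The 2 HSP17.5-M genes stood at ratios of 1.14, 1.23 and 1.17 in HT (MSTRG.30591 over MSTRG.30592), 0.948, 0.723 and 1.06 in DH, 1.06 in CK1 and 2.38 in CK3, and 5.22 and 2.66 in DR1 and DR3. The CK3 and DR3 ratios were thus close, and those of CK and DR1 rest on FPKM of 1.49 or less in 1 or both genes. For the 2 HSP17.4B genes, MSTRG.37536 stood at 6.28, 4.41 and 0.719 times G39305 in HT, 1.70 and 2.25 times in DR1 and DR3, and 2.10, 4.53 and 1.86 times in DH. No test was run on these ratios.

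**Figure D4:**
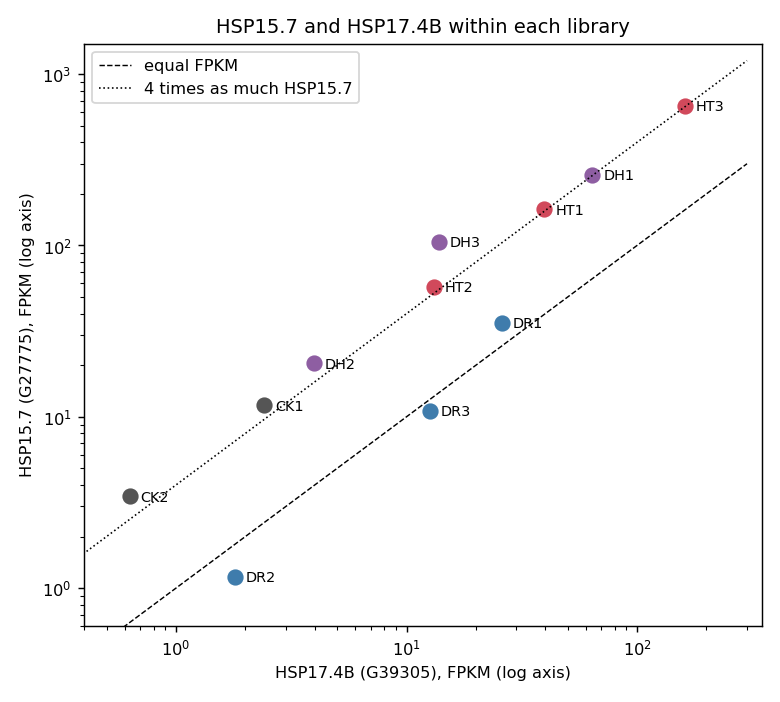
FPKM of HSP15.7 against FPKM of HSP17.4B G39305, both on log axes, 1 point per library, with lines at equal FPKM and at 4 times as much HSP15.7. CK, HT and DH libraries lie at or above the 4-fold line and the 3 DR libraries near the line of equality, with ratios from 0.644 to 1.37. CK3 is not drawn, as G39305 is listed there at 0.

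The other heat response genes that the study names with an ID place these values among their partners. They too come from the study's lists of genes changed in these libraries. A rise over CK is thus no independent evidence for them either. Of 7 such genes, 2 were raised under HT, HSP70 (G9639) and HSP70-5 (G13246), ATP-driven chaperones that refold the proteins small heat shock proteins hold. HSP70 had 0.48, 0.19 and 1.32 FPKM in CK, 43.0, 17.9 and 47.0 in HT, 8.73, 1 and 3.74 in DR, and 12.6, 4.18 and 7.20 in DH. All HT libraries lay above all others, and its difference from CK was 4.42 ± 0.90 under HT (limma, adjusted p = 0.020), 2.38 ± 0.90 under DH (adjusted p = 0.24) and 1.5 ± 0.90 under DR (adjusted p = 0.92). HSP70-5 was higher by 5.28 ± 1.03 under HT (adjusted p = 0.015). Both HT calls ended without CK2, HT1 or HT3 (4.17 to 5.03, adjusted p up to 0.12).

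The 2 regulators on the list were not called under any stress, though both were in some alternatives. MBF1C (G15814), a transcriptional coactivator of the heat response, had 119 to 220.4 FPKM in CK, 1073 to 2954 in HT, 489 to 677 in DR and 614 to 4805 in DH, with no stressed library within the control range. It was higher than CK by 3.65 ± 0.98 under HT (limma, adjusted p = 0.072) and by 3.67 ± 0.98 in DH (adjusted p = 0.056). It would have been called in DH without HT3 or DH2 (3.67 and 4.49). HSF24 (G19416), a heat stress transcription factor name, had at most 0.36 FPKM in CK and 3.33 to 33.5 in HT, a difference of 3.59 ± 0.93 (adjusted p = 0.060), which would have been called without HT2 (4.45, adjusted p = 0.011). HSP90 (G17562), annotated by the study as an endoplasmin of the endoplasmic reticulum, had 0.73, 2.81 and 27.9 FPKM in CK and at most 1.8 in any stressed library, and was not called.

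A pair of small heat shock genes outside the 7, both named SHSP-2, lay far higher under DR than under HT. The fitted differences of the 7 between HT and DR had the other sign, though none was called. MSTRG.38747 was listed at 0 in all CK and HT libraries, at 79.8 and 152 FPKM in DR1 and DR3, and at 3.16, 1.04 and 4.81 in DH. MSTRG.4626 was listed at 0 in CK, at no more than 0.17 in HT, at 238 and 405 in DR1 and DR3, and at 45.5, 5.4 and 18.7 in DH. DR stood above every other library for both, and DH between DR and HT. DR2 lists neither.

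Both SHSP-2 genes were raised under DR against CK, by 6.80 ± 0.92 for MSTRG.38747 (limma, adjusted p = 0.00025) and 8.28 ± 1.01 for MSTRG.4626 (adjusted p = 0.00015), and both were lower in HT than in DR (adjusted p = 0.00087 and 0.00036). Under DH against CK, MSTRG.4626 was raised by 4.17 ± 0.91 (adjusted p = 0.018), a call that ended without CK2, DH1 or DH3 (3.49 to 4.17, adjusted p up to 0.14). Averaged over both temperatures drought raised both, by 4.34 ± 0.62 and 6.19 ± 0.68 (adjusted p = 0.00080 and 4.3e-05). These values rest on 11 libraries and, within DR, on 2. Both genes were taken from the study's lists of genes changed in these libraries, so their rises are no independent result.

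**Figure D5:**
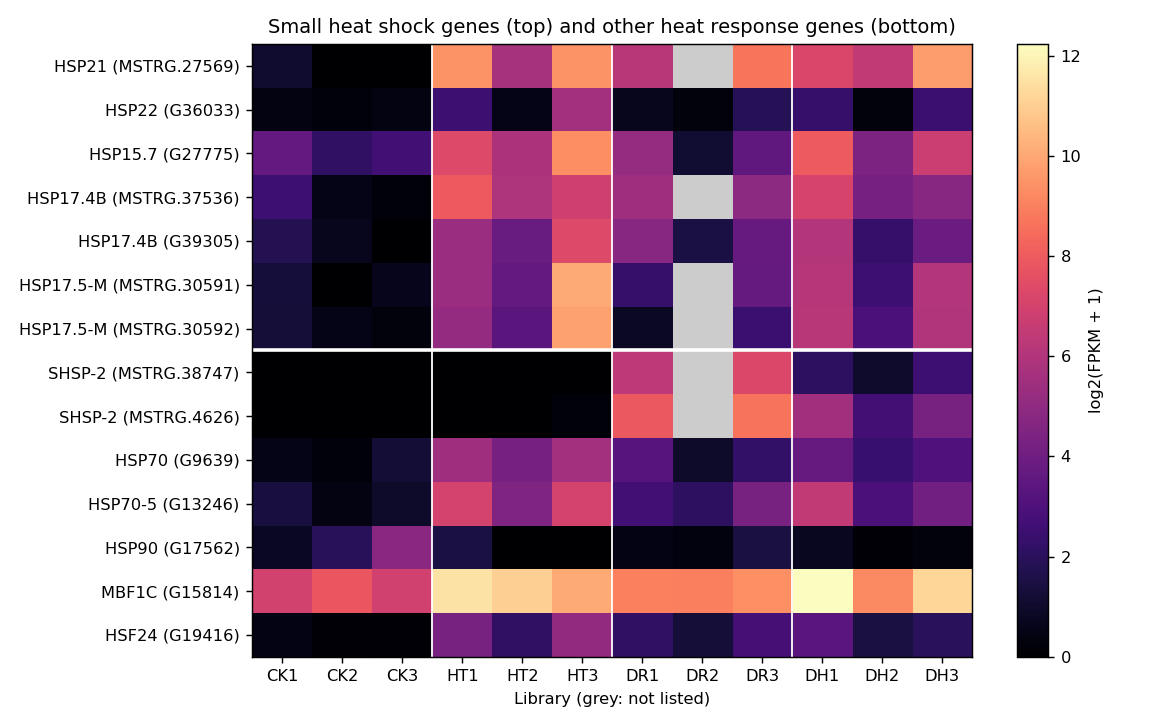
Level as log2(FPKM + 1) (colour) of the 7 small heat shock genes (above the white line) and 7 other heat response genes (below it) in the 12 libraries, with grey where DR2 does not list a gene. The SHSP-2 rows are bright in DR1 and DR3 and dark in HT. HSP15.7 and MSTRG.30592 are higher in each HT library than in each DR library listing them, by smaller gaps. MSTRG.30591 overlaps between the groups (11.8 FPKM in HT2, 12 in DR3).

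Across libraries, the pattern of each gene was also compared with that of every other gene tested, as a Pearson correlation of log2(FPKM + 1) over the 11 or 12 libraries that list both. The points share the library scale and the 4 groups, so the coefficients are descriptions only. Each HSP17.5-M gene had the other as its nearest of 12294 genes (0.978). Among the 7 the order depended on the coefficient. HSP21 stood at 0.871 with HSP17.4B MSTRG.37536 and 0.691 with HSP22 by Pearson, and at 0.642 and 0.866 by Spearman. Outside the 7, the nearest genes were G42725 for HSP15.7 (0.988), MSTRG.28023 for HSP17.4B MSTRG.37536 (0.984), G25082 for G39305 (0.969), G19472 for HSP22 (0.968), G34933 for HSP21 (0.922), and G27774, whose ID precedes that of HSP15.7, for both HSP17.5-M genes (0.920 and 0.933), all without a name in the sources used here. By Spearman, G42725 and G25082 kept the first place outside the 7. MSTRG.28023 stood there at place 16, G19472 at 56, G34933 at 8, and G27774 at 56 for MSTRG.30591 and 2 for MSTRG.30592. Of the named heat response genes, HSF24 stood by Pearson at place 4 for HSP17.4B G39305 (0.943). For HSP17.5-M MSTRG.30591, HSF24 stood at place 12 (0.901) and HSP70-5 at place 13 (0.897). Other pairs were far less alike, such as MBF1C at place 2951 for HSP22 (0.515). The SHSP-2 genes stood at places 2437 to 8653, and HSP90 was negative with all 7 (-0.642 to -0.273).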

How the data were processed

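Per the labels, the authors used cutadapt (1.9) for trimming, HISAT2 (2.0.4) for alignment and StringTie (1.3.4d) for assembly, and the deposited FPKM of each library have 2 decimals; the methods name another trimmer and sequencer. Counting strand is not given, and the counting error of an FPKM cannot be given without counts. DESeq2 and edgeR are named for the authors' tests.

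Groups came from sample titles. The 12295 genes that reached 1 FPKM in 3 or more libraries were fitted on log2(FPKM + 1), a pseudocount of 1, with limma 3.58.1 under R 4.3.3. Moderation used a trend, tests were two-sided, and all 12 libraries entered 1 fit. DR2 lists 49073 of 50592 genes. The 1519 missing IDs all begin with MSTRG, and 1087 tested genes (4 of the 7 small heat shock genes) were fitted on 11 libraries. Benjamini-Hochberg adjustment ran over all tested genes. Raised or lowered means adjusted p under 0.05 and a log2 difference beyond 1. A difference on this scale understates the change of a gene near 0. The fit was tested on simulated data. The genes named are the 7, the other heat response genes the study gives with an ID, and for each of the 7 the most correlated gene outside them. Members, lists and tests were chosen with earlier results of these data known. Python 3.11.15 (pandas 2.3.3, numpy 2.4.6) gave medians, shares, ratios and correlations.

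Alternatives were pseudocounts of 0.1 and 0.01, other filters and none, 5 scalings, array weights, a replicate block, fits restricted to the 2 groups compared, no variance trend, no fold threshold, the 4 libraries numbered 2 left out, and each library left out. A further 2, without HT2 and DH2 and without CK3, HT2 and DH2, were added after seeing the data. No genome of the files' gene models was used, so no coordinates or sequences are given.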

Additional observations from a re-analysis of the deposited data

How the results depend on the processing

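In this paragraph, numbers in brackets give all genes called in the same direction. In the main fit these were 70 under HT, 72 under DR, 71 under DH, 20 for heat and 26 for drought, of 12295. Without a filter on low values (40167 genes tested) 1 of the 7 genes was raised under HT (5), 0 under DR (17), 1 under DH (12) and 0 by heat on average (0). A fit of only the groups compared gave 2 under HT (7) and 1 under DH (53), and a fit without variance trend gave 2 under HT (77). Scaling without the 10 most abundant genes gave 2 under DR (113), 6 under DH (231), 6 for the mean effect of heat (137) and 1 for that of drought (92). Median-of-ratios scaling gave 5 under DH (183), 5 for heat (58) and 1 for drought (77). Quantile normalization gave 6 under DH (226) and 5 for heat (61), and upper-quartile scaling 4 under DH (114) and 1 for drought (72). A pseudocount of 0.1 gave 4 under DH (112) and 1 for drought (45). Array weights gave 2 under DR (730), 7 under DH (995), 2 between DH and DR (24), 2 for heat by drought (439), 6 for heat (537) and 1 for drought (229). Without the 4 libraries numbered 2, 1 gene of the 7 was called between HT and DR (2). Without HT2 and DH2, chosen after seeing the data, the counts were 5 under DH (154), 1 between HT and DR (15), 1 for heat by drought (10) and 6 for heat (77). Without CK3 as well there were 5 for heat (71). The cause of these moves was not tested. Leaving out 1 library at a time gave 1 to 7 raised under HT, 0 to 2 under DR, 1 to 4 under DH, 0 to 1 for heat by drought and 0 to 5 for the mean effect of heat, with 0 in the other comparisons. No called difference changed sign under any alternative run. The median of all genes moved from 0.30 to -0.49 under HT with upper-quartile scaling, where that of the 7 moved from 5.41 to 4.36.

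With the replicate number as a block, 2 of the 7 were raised under DR, 5 under DH and 6 by heat on average. Of all genes, 121, 141 and 100 were raised with the block, beside 72, 71 and 20 without it. Replicate numbers share no stated source, and 10 of 18 same-number pairs of libraries had deviations correlated above 0.1 (-0.12 to 0.60), with 7 of 12 libraries closest to their own number. Since not every pair passed 0.1, the libraries of the fit were not taken as paired, although the 3 pairs of CK with DR did pass (0.19 to 0.60). Called with the block but not in the main fit were MSTRG.37536 under DR, and HSP15.7, MSTRG.30591 and MSTRG.30592 under DH (limma, adjusted p = 0.032 to 0.036). For heat on average these were MSTRG.37536, G39305 and MSTRG.30591 (limma, adjusted p = 0.011 to 0.036). Each was called in some other alternatives too. FPKM without counts and 3 pools per group limit the precision of every value.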
